A study of Mus musculus with 6 samples.

Results

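The genes described here encode 37 receptor tyrosine kinases other than the PDGF and ephrin receptors. They were taken as a list of gene families from 22911 genes named on the array, with earlier results of these data known. Their probes were found through the accession of each probe. Expression was measured in IG27 cells, a line of OS3 glial cells that carries H3.3K27M (3 arrays), and in WT cells, OS3 cells that carry the empty vector (3 arrays). OS3 is a glial line from brain labeled as male C3H, which came from newborn C3H/HeN mice in the study's methods, and both lines carry the SV40 genes that immortalized it. All cells grew for 2 days in the same medium with fetal serum, glucose and bovine insulin, the last of which is itself a ligand of receptors of this family. The mutation was brought in with an *H3f3a*-K27M expression plasmid, and clones were established by drug selection, so an effect of the mutation and a difference between the lines as clones cannot be told apart. The 3 samples of a group were separate dishes, and p-values therefore measure the spread between dishes, which may be technical.

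Receptor tyrosine kinases span the cell membrane, bind a protein ligand (or, for the discoidin domain receptors, collagen) outside the cell, and phosphorylate tyrosines on themselves and on docked adaptor proteins inside it. From there the signal runs mainly through RAS, RAF, MEK and ERK and through PI3 kinase, and Sprouty proteins, dual-specificity phosphatases and CBL ubiquitin ligases dampen it. In the glial lineage FGF receptors, ErbB receptors, *Ntrk2* and the TAM receptors are known to take part in growth, survival and the clearance of debris, whereas the VEGF receptors are best known from endothelium and *Csf1r* from microglia.

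Values are log2 of the processed signal relative to the 75th percentile of each array, so 0 is the 75th percentile, and a level is compared only for the same probe between arrays. Between 58.8% and 61.2% of probes were well above background on the 5 arrays with complete scanner output. The scanner output of IG27 replicate 2 was incomplete, and its values came from the deposited value table, which has no background flag, so that statements on background rest on the complete arrays. In the comparison of IG27 with WT cells by limma (two-sided, p adjusted over all genes by Benjamini-Hochberg, threshold 0.05), 10501 of the 14898 genes tested were called, so that a call alone sets no gene apart here. The log2 fold change of *H3f3a* was -0.26 (standard error, SE, 0.08, limma adjusted p = 0.0237), and whether its probes read the plasmid is not stated, so it does not check the labels. Markers of the labeled glial cell type were present: the oligodendrocyte lineage genes *Sox10*, *Olig1*, *Olig2*, *Mbp*, *Mog* and *Cspg4* and the astrocyte genes *Gfap*, *Aqp4*, *Aldh1l1*, *S100b*, *Slc1a2* and *Slc1a3* were well above background in at least 1 group. *Gfap* fell by 1.07 by its brightest probe and rose by 0.19 (limma adjusted p = 0.0236) by the other, and *Slc1a3*, a glutamate transporter, was at least 20.6-fold higher in IG27 cells. Of other cell types, the neuronal genes *Snap25*, *Syn1*, *Stmn2* and *Slc17a7*, the mesenchymal genes *Col1a1*, *Dcn*, *Pdgfrb* and *Acta2* and the epithelial genes *Epcam* and *Esrp1* were above background in at least 1 group. Some of them differed widely between the groups. Mean values in WT and IG27 cells were -2.93 and -7.62 for *Stmn2*, -7.64 and -1.83 for *Epcam*, and -7.63 and -4.04 for *Dcn*.

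Of the 37 receptor genes, 24 were tested, which required a probe that stood well above background throughout the complete arrays of a group. Of these, 19 differed between IG27 and WT cells beside 70.5% of all genes tested. IG27 cells had 5 of them higher (*Kdr*, *Flt1*, *Igf1r*, *Ddr2* and *Alk*), beside 30.5% of all genes, and 14 lower, beside 40.0% of all genes. The lower receptors were *Met*, *Fgfr3*, *Mst1r*, *Csf1r*, *Tyro3*, *Ror1*, *Insr*, *Ryk*, *Axl*, *Ntrk2*, *Fgfr2*, *Fgfr1*, *Fgfr4* and *Ddr1*. *Kdr* and *Flt1* entered the test through IG27 cells alone and *Mst1r* through WT cells alone, which favors the direction of their calls. A change of at least 2-fold was found in 10 receptors, 4 higher (beside 11.5% of all genes) and 6 lower (beside 11.7% of all genes), beside 23.1% of all genes for both directions. The arrays of WT and IG27 cells did not overlap for 20 of the 24 receptors and for 75.7% of all genes. The median log2 fold change of the 24 receptors was -0.63, beside -0.07 over all genes tested. As this is RNA of a whole culture, fewer cells with a receptor and less of its RNA per cell cannot be told apart.

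**Figure D1:**
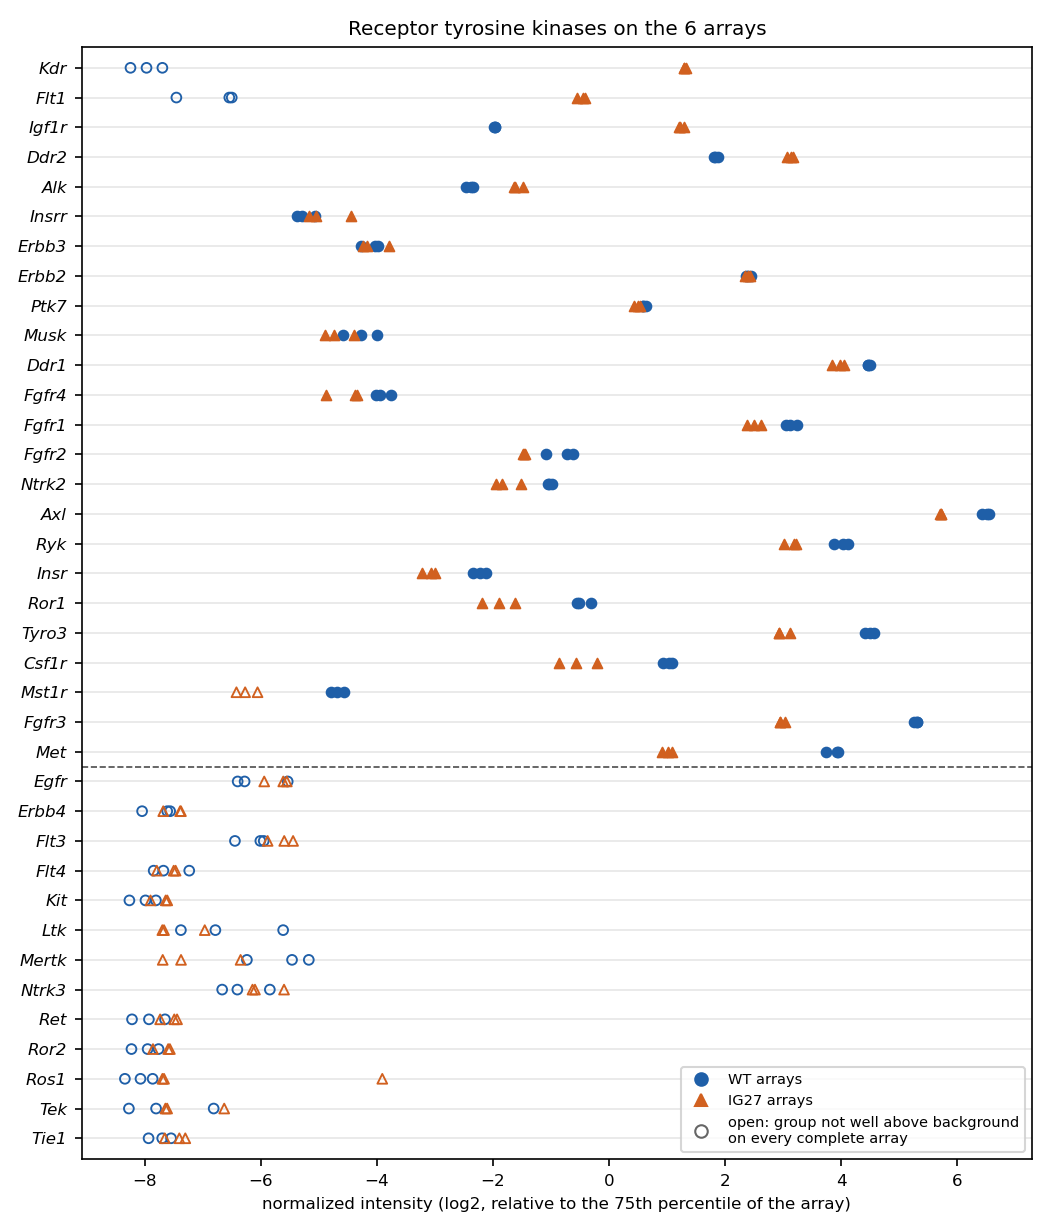
Normalized intensity (log2, relative to the 75th percentile of the array) of the 37 receptor genes on each array, WT as circles and IG27 as triangles, with receptors ordered by log2 fold change and those not tested below the dashed line. *Kdr* and *Flt1* are at the background in WT cells (open circles) and near 1.31 and -0.46 in IG27 cells, and the 13 untested receptors lie low in both groups.

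The promoters of the receptors with the largest changes are shown because the H3.3K27M protein alters a mark, methylation of lysine 27 of histone H3, that Polycomb proteins lay down mostly at promoters rich in CpG. This mark was not measured on the arrays. The 250 bases before the annotated start are given 5′ to 3′ along the gene (RefSeq, build GRCm38.p6), with each CG in capitals. *Fgfr3* has a further annotated start, which is not shown.
*Kdr*, chr5:75978456-75978705, minus strand: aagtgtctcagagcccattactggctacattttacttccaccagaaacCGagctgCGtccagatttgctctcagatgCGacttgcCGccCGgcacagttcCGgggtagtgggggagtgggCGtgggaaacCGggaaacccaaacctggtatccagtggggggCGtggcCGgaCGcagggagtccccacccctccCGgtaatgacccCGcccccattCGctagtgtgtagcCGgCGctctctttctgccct
*Flt1*, chr5:147726012-147726261, minus strand: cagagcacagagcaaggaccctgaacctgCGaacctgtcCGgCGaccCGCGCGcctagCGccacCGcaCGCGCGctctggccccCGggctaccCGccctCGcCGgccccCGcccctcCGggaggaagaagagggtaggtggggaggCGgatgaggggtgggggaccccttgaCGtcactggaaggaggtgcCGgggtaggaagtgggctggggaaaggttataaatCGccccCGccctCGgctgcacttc
*Igf1r*, chr7:67952007-67952256, plus strand: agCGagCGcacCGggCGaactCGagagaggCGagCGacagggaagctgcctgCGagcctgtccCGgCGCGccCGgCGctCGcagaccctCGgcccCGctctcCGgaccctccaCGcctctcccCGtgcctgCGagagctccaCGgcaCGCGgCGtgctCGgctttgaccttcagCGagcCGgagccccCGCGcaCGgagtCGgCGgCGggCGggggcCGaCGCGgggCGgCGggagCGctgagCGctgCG
*Met*, chr6:17463707-17463956, plus strand: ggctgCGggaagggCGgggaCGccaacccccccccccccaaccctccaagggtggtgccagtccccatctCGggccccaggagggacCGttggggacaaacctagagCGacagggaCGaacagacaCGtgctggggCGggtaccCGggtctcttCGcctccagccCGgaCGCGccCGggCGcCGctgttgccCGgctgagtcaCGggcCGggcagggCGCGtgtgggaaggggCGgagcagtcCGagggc
*Fgfr3*, chr5:33721474-33721723, plus strand: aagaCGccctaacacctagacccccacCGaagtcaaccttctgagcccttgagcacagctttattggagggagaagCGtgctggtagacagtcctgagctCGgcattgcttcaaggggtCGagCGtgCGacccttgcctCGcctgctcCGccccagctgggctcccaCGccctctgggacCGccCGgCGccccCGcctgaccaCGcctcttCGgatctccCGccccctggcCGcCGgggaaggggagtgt
These stretches hold 16 CG for *Kdr*, 23 for *Flt1*, 42 for *Igf1r*, 24 for *Met* and 19 for *Fgfr3*, so that among these 5 the receptors that rose and those that fell both have many CG. Windows of 300 bases (250 before the start and 50 after it) were found for 30 of the 37 receptors, 36 windows in all. Of these, 12 were of receptors not tested, so the shares below do not compare like sets with those of the genes tested. At least 10 CG were present in 69.4% of them and in 71.8% of the windows of the genes tested. Of the 5 called higher, *Ddr2* had the fewest CG, 2 in its window. The letters TATAAA, searched on both strands, were in 8.33% of the receptor windows, those of *Flt1*, *Ddr2* and *Ryk*, and in 8.45% of the windows of the genes tested. The letters ACGTG, the core that hypoxia-inducible factors bind, were searched on both strands as well and were in 13.9% of the receptor windows against 24.0% of those of the genes tested. These letters were in the windows of *Met*, *Fgfr2*, *Fgfr4*, *Musk* and *Flt3*, and not in those of *Kdr* and *Flt1*. The other form of this core, GCGTG, was in 55.6% of the receptor windows, *Kdr* and *Flt1* included, against 46.9% of those of the genes tested. Among the 12 windows of receptors not tested, TATAAA was in 0, ACGTG in 1 and GCGTG in 4, and 9 had at least 10 CG.

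The VEGF receptors changed most. *Kdr*, the main signaling receptor for VEGF-A, had normalized log2 intensities of -7.97, -7.70 and -8.24 on the WT arrays and of 1.30, 1.33 and 1.29 on the IG27 arrays. *Flt1*, which binds VEGF-A, VEGF-B and placental growth factor and also serves as a decoy for VEGF-A, read -6.54, -7.45 and -6.50 on the WT arrays and -0.41, -0.54 and -0.44 on the IG27 arrays. Neither gene was well above background on any WT array, and both were on each complete IG27 array, a pattern of 1 group only that 5.71% of all genes tested shared. Measured against the lowest signal that counts as well above background, *Kdr* was at least 134.8-fold and *Flt1* at least 39.6-fold higher in IG27 cells. The fitted log2 fold changes were 9.27 (SE 0.14, limma adjusted p = 9.87e-08) for *Kdr* and 6.37 (SE 0.26, adjusted p = 3.46e-06) for *Flt1*. Both genes entered the test through IG27 cells alone, and their fits and p-values rest on background readings in WT cells. With normexp background correction the values became 5.36 and 3.54, so the bounds are the sizes to read. The lymphatic receptor *Flt4* was not well above background on any array, with means of -7.58 ± 0.32 (SD, n = 3) in WT and -7.59 ± 0.18 (SD, n = 3) in IG27 cells.

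The ligands of these receptors were measured on the same arrays. *Vegfa* read 0.52, 1.58 and 1.44 on the WT arrays and 4.13, 4.28 and 4.07 on the IG27 arrays, a log2 fold change of 2.98 (SE 0.28, limma adjusted p = 0.000133). Its 3 probes that were well above background in both groups gave log2 fold changes from 2.94 to 2.98. *Vegfd* rose by 1.75 and *Vegfb* by 0.28, whereas *Pgf*, the gene of placental growth factor, fell by 0.60 on the log2 scale, and *Vegfc* was not above background on any array. Of the VEGF co-receptors, *Nrp1* rose by 0.33 (adjusted p = 0.0265) and *Nrp2* did not pass the test by its brightest probe (0.04, adjusted p = 0.645). Among 7 endothelial markers, *Cdh5*, *Cldn5* and *Emcn* were not well above background on any array, and *Esam* was so on 2 WT arrays only. *Pecam1* fell by 0.27, *Vwf* rose by 1.46, and the transcription factor gene *Erg* was at least 4.33-fold higher in IG27 cells. The summed level of the 7 markers was 0.29 to 0.32 times the 75th percentile on WT arrays and 0.47 to 0.49 times on IG27 arrays. The angiopoietin receptors *Tek* and *Tie1*, further endothelial kinases of the list, were not well above background on any array. The part of *Vwf*, *Erg* and the other markers in the rise of both receptors was not tested.

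**Figure D2:**
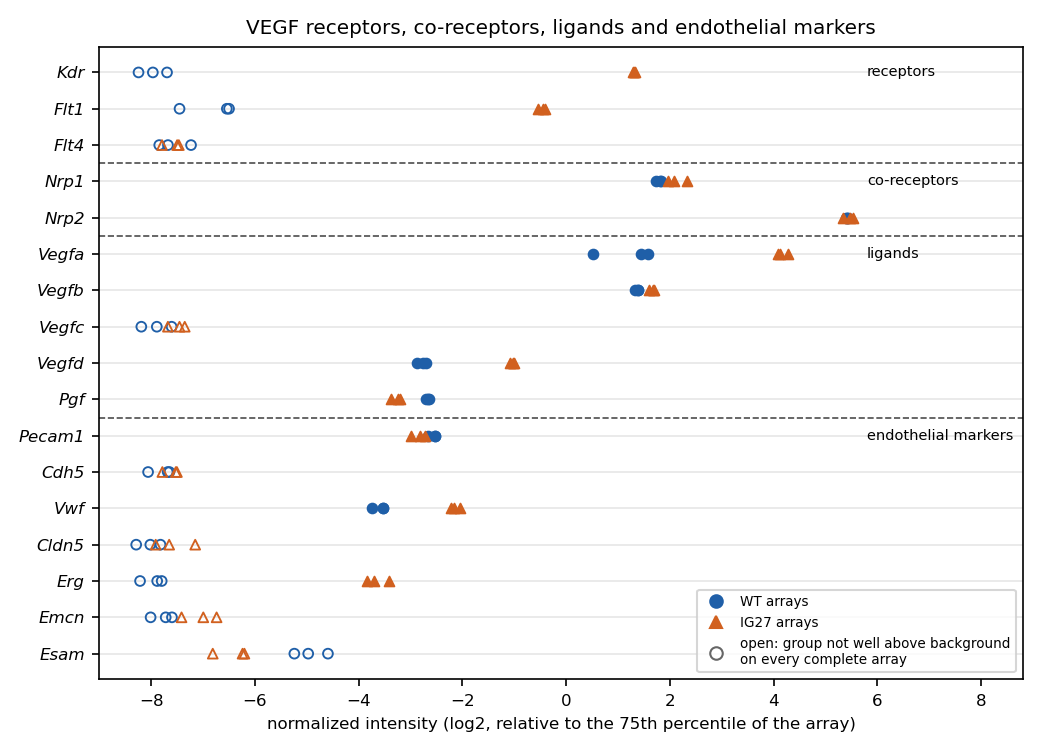
Normalized intensity (log2, relative to the 75th percentile of the array) on each array for VEGF receptors, co-receptors, ligands and endothelial markers, WT as circles and IG27 as triangles, open where the group was not well above background on every complete array. *Kdr*, *Flt1* and *Vegfa* are higher on all IG27 arrays, as are *Vwf* and *Erg* among the endothelial markers, while *Cdh5*, *Cldn5* and *Emcn* are open in both groups.

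*Kdr* and *Flt1* both lie on chromosome 5, whose 920 tested genes had a median log2 fold change of 0.03. *Kdr* sits next to the stem cell factor receptor *Kit*, which was not well above background on any array, and beyond it *Pdgfra*, which rose by 2.36. Its neighbor on the other side, *Srd5a3*, rose by 0.24. *Flt1* sits between *Pan3*, which rose by 0.21, and *Pomp*, with a log2 fold change of -0.24 (limma adjusted p = 0.0692), and the next receptor along, *Flt3*, was not above background on any array. Changes of the size seen in *Kdr* and *Flt1* were thus not shared by their immediate neighbors.

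The receptors for insulin and insulin-like growth factors moved in opposite directions. *Igf1r*, the receptor of IGF-1 and IGF-2, read -1.96, -1.97 and -1.98 on the WT arrays and 1.22, 1.29 and 1.20 on the IG27 arrays. The 3 WT values were nearly the same and lay far below all IG27 values. Its log2 fold change was 3.21 (SE 0.05, limma adjusted p = 1.04e-07), a 9.23-fold rise, and its other probe gave 3.69. The insulin receptor *Insr* had a mean of -2.22 ± 0.12 (SD, n = 3) in WT and -3.10 ± 0.11 (SD, n = 3) in IG27 cells and fell by 0.88 on the log2 scale (adjusted p = 0.000174), on chromosome 8, whose tested genes had a median of -0.67, and by 0.25 (adjusted p = 0.0384) after centering on chromosome medians. The insulin receptor-related gene *Insrr*, a sensor of alkaline pH, had a log2 fold change of 0.35 with a 95% interval of -0.14 to 0.85 (adjusted p = 0.166). Of the ligands, *Igf1* was not above background on any array, and *Igf2* did not pass the test (-0.43, adjusted p = 0.315). The insulin receptor substrates, which dock to both receptors, changed in opposite directions as well: *Irs1* rose by 1.62 and *Irs2* fell by 2.38, and *Grb14*, an adaptor that inhibits the insulin receptor, rose by 2.48.

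All 4 FGF receptors fell. *Fgfr3*, which is expressed in astrocytes and their precursors, read 5.31, 5.31 and 5.25 on the WT arrays and 3.03, 2.95 and 2.96 on the IG27 arrays, a log2 fold change of -2.31 (SE 0.05, limma adjusted p = 2.75e-07). The groups were well apart, and the other probe of the gene gave -2.29. The summed level of 7 astrocyte markers, in times the 75th percentile, was 95.8 to 105.6 on WT and 55.1 to 63.4 on IG27 arrays. Most of this sum came from the brightest *Gfap* probe, and the other *Gfap* probe rose by 0.19. Of the 6 tested, 2 were higher, *S100b* (by 4.93) and *Slc1a3*, and 3 lower. For 7 markers of fibroblasts and mural cells the sum was 148.8 to 152.3 on WT and 80.04 to 85.24 on IG27 arrays. Most of it came from the brightest *Col1a1* probe. Of the 4 tested, *Dcn* was higher and 3 were lower, *Acta2* by its brightest probe only. The part of these markers in the falls of *Fgfr3* and the other receptors was not tested. *Fgfr2* fell by 0.66, *Fgfr1* by 0.63 and *Fgfr4* by 0.62 on the log2 scale, with adjusted p of 0.00317, 0.000704 and 0.012. The 4 probes of *Fgfr1* ran from -1.11 to -0.59. *Fgfr1* is on chromosome 8 as well, and after centering its log2 fold change was -0.01 (adjusted p = 0.957), while that of *Fgfr3* was -2.36. Centering also ended the call of *Fgfr4* (-0.38, adjusted p = 0.0613), as did the slide row as a block (-0.52, adjusted p = 0.113).

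The FGF ligand genes that passed the test were higher, but by their brightest probes only *Fgf23* of them was well above background in both groups. *Fgf1*, *Fgf2* and *Fgf21* entered the test through IG27 cells alone, so that the filter itself favored a rise. *Fgf1*, a ligand of all FGF receptors, was at least 22.4-fold higher, *Fgf2* at least 3.00-fold higher and *Fgf21*, an endocrine FGF, at least 13.2-fold higher in IG27 cells, and *Fgf23* rose by 0.33. The dimmer probe of *Fgf1* rose less, from -5.24 to -4.24 (adjusted p = 0.000484). *Fgf8* and *Fgf18* had log2 fold changes of 0.00 and -0.05 and were not called. Of the proteins that present FGFs to their receptors, the heparan sulfate proteoglycans *Gpc1* and *Sdc1* fell by 1.76 and 0.25, whereas *Sdc2*, *Sdc3* and *Sdc4* rose by 0.80, 0.87 and 0.51. The kinase-less receptor *Fgfrl1* fell by 0.45.

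Both receptors of the Met family fell. *Met*, the receptor of hepatocyte growth factor, read 3.93, 3.75 and 3.95 on the WT arrays and 1.09, 1.02 and 0.91 on the IG27 arrays, with a log2 fold change of -2.87 (SE 0.08, limma adjusted p = 7.59e-07), the largest fall among the 24 receptors tested. Its other probe gave -2.66. *Mst1r*, the receptor of macrophage-stimulating protein, read -4.68, -4.79 and -4.56 on the WT arrays and -6.27, -6.06 and -6.42 on the IG27 arrays. It was well above background on all WT arrays and on no complete IG27 array, so that it was lower in IG27 cells by at least 1.59-fold (log2 fold change -1.57, adjusted p = 3.45e-05). The *Met* ligand *Hgf* was not well above background on any array. *Mst1*, which encodes the ligand of *Mst1r*, was lower in IG27 cells by at least 1.89-fold.

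*Csf1r*, the receptor of CSF-1 and interleukin 34 that microglia need to survive, read 0.93, 1.04 and 1.09 on the WT arrays and -0.21, -0.56 and -0.86 on the IG27 arrays. Its log2 fold change was -1.57 (SE 0.16, limma adjusted p = 0.000222), but its dimmer probe gave -0.13 (adjusted p = 0.072), so the probes disagree in the call. Both ligands were lower by their brightest probes: *Il34* fell by 1.56 and *Csf1* by 0.71, although the other probes of *Csf1* rose by 0.23 and 0.25. Of 8 markers of microglia and macrophages, *Cx3cr1*, *Ptprc*, *Adgre1* and *Spi1* were not well above background on any array. *Itgam* rose by 0.20, *P2ry12* by 0.49 and *Aif1*, well above background on 1 of 3 WT arrays, by 1.66, *Tmem119* fell by 0.76, and the summed level of the list was 12.5 to 13.7 times the 75th percentile on WT and 13.3 to 13.9 times on IG27 arrays. Their part in the fall of *Csf1r* was not tested.

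The TAM receptors, which bind GAS6 and protein S on dying cells, were lower as far as they were measured. *Tyro3* read 4.57, 4.41 and 4.50 on the WT arrays and 3.12, 2.93 and 2.94 on the IG27 arrays, a log2 fold change of -1.50 (SE 0.08, limma adjusted p = 8.46e-06). *Axl* went from 6.49 ± 0.06 (SD, n = 3) to 5.72 ± 0.01 (SD, n = 3) and fell by 0.78. *Mertk* was well above background on 2 of 3 WT arrays and on no complete IG27 array, with means of -5.62 ± 0.55 (SD, n = 3) and -7.14 ± 0.70 (SD, n = 3), and did not enter the test. Without the filter on dim probes its log2 fold change was -1.51, with an adjusted p of 0.0412. *Pros1*, which encodes protein S, fell by 0.72, and *Gas6* was well above background on 1 array of each group.

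The discoidin domain receptors, which bind collagen, moved apart. *Ddr2* read 1.81, 1.87 and 1.82 on the WT arrays and 3.06, 3.13 and 3.17 on the IG27 arrays, a log2 fold change of 1.29 (SE 0.05, limma adjusted p = 2.98e-06), and its other probes gave 1.18 and 1.32. *Ddr1*, which oligodendrocytes express, fell by 0.51 (adjusted p = 0.000504). *Ror1*, a receptor for WNT5A, read -0.32, -0.52 and -0.54 on the WT arrays and -1.62, -1.90 and -2.19 on the IG27 arrays and fell by 1.44 on the log2 scale (SE 0.15, adjusted p = 0.000223). *Ror2*, the other receptor of this pair, was not well above background on any array, while the ligand gene *Wnt5a* rose by 3.17. *Ryk*, a further WNT receptor, fell by 0.87, and after centering on the chromosome 9 median, which was -0.64, by 0.32. *Ptk7*, a pseudokinase of planar polarity, had a log2 fold change of -0.12 with a 95% interval of -0.24 to 0.01 (adjusted p = 0.0836). *Musk*, the agrin-dependent receptor of the neuromuscular junction, had -0.39 (adjusted p = 0.11), and its dimmer probe had -0.36 (adjusted p = 0.0309). Its co-receptor *Lrp4* fell by 2.30, and *Agrn* did not pass the test by its brightest probe (0.09, adjusted p = 0.191).

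*Alk*, which is active in the developing nervous system, had a mean of -2.40 ± 0.06 (SD, n = 3) in WT and -1.58 ± 0.08 (SD, n = 3) in IG27 cells and rose by 0.82 (limma adjusted p = 5.71e-05). Its relative *Ltk* and the ligand genes *Alkal1* and *Alkal2* were not tested. *Ntrk2*, the receptor of BDNF and neurotrophin 4, went from -1.02 ± 0.04 (SD, n = 3) to -1.77 ± 0.23 (SD, n = 3) and fell by 0.75 (adjusted p = 0.00142). Its ligands changed in opposite directions, as *Bdnf*, well above background on 2 of 3 WT arrays, rose by 1.99 and *Ntf5*, the gene of neurotrophin 4, fell by 1.20, and *Ngfr*, the low-affinity receptor that all neurotrophins share, fell by 2.92.

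The ErbB receptors that were measured differed little. *Erbb2*, the co-receptor that binds no ligand itself, had means of 2.40 ± 0.04 (SD, n = 3) in WT and 2.39 ± 0.05 (SD, n = 3) in IG27 cells, and the 95% interval of its log2 fold change ran from -0.13 to 0.12 (limma adjusted p = 0.908). *Erbb3*, a receptor of neuregulins, had a log2 fold change of 0.03 with an interval from -0.31 to 0.37 (adjusted p = 0.863). *Erbb4* was not well above background on any array, and *Egfr* was so by 1 of its 3 probes, not the brightest, on 1 complete IG27 array, where that probe read -3.19 against -7.14 and -7.91 on the other IG27 arrays. Ligands of this family differed nonetheless: *Ereg* was at least 15.5-fold and *Areg* at least 2.31-fold higher in IG27 cells, *Nrg2* rose by 2.62, and *Hbegf* fell by 1.66.

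The 13 receptors that were not tested had values from -8.34 to -3.91 over all arrays by their brightest probes. Apart from *Mertk* and that probe of *Egfr* they were well above background on no complete array, which holds for 11 receptors: *Erbb4*, *Kit*, *Flt3*, *Flt4*, *Tek*, *Tie1*, *Ntrk3*, *Ret*, *Ros1*, *Ltk* and *Ror2*. The value of -3.91 was that of *Ros1* on the array of IG27 replicate 2, which has no background flag, against -7.67 and -7.69 on the other IG27 arrays. *Ret*, the shared receptor of the GDNF family, was thus not detected above background in either group, although its co-receptors *Gfra2* and *Gfra1* rose by 6.24 and 2.50. Among its ligands *Gdnf* fell by 2.48, *Nrtn* rose by 0.47 and *Artn* rose by 1.10.

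Receptors on chromosomes with a general shift were read against it. Genes of chromosome 8 had a median log2 fold change of -0.67 and those of chromosome 9 of -0.64, which bears on *Fgfr1* and *Insr* and on *Mst1r* and *Ryk*. After centering on chromosome medians, *Insr* fell by 0.25 (limma adjusted p = 0.0384) and *Mst1r* by 1.02. *Kdr*, *Flt1*, *Igf1r*, *Met*, *Ddr2* and *Tyro3* had 9.23, 6.32, 2.89, -2.60, 1.26 and -1.02. In all, 21 of the 24 receptors were called after centering, beside 68.0% of all genes. Of these 7 were higher and 14 lower, beside 31.5% and 36.5% of all genes, and the median of the 24 was -0.35. *Erbb2* then had 0.19 (adjusted p = 0.0224) and *Insrr* 0.70 (adjusted p = 0.0196), and *Musk* and *Ptk7* were called lower.

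**Figure D3:**
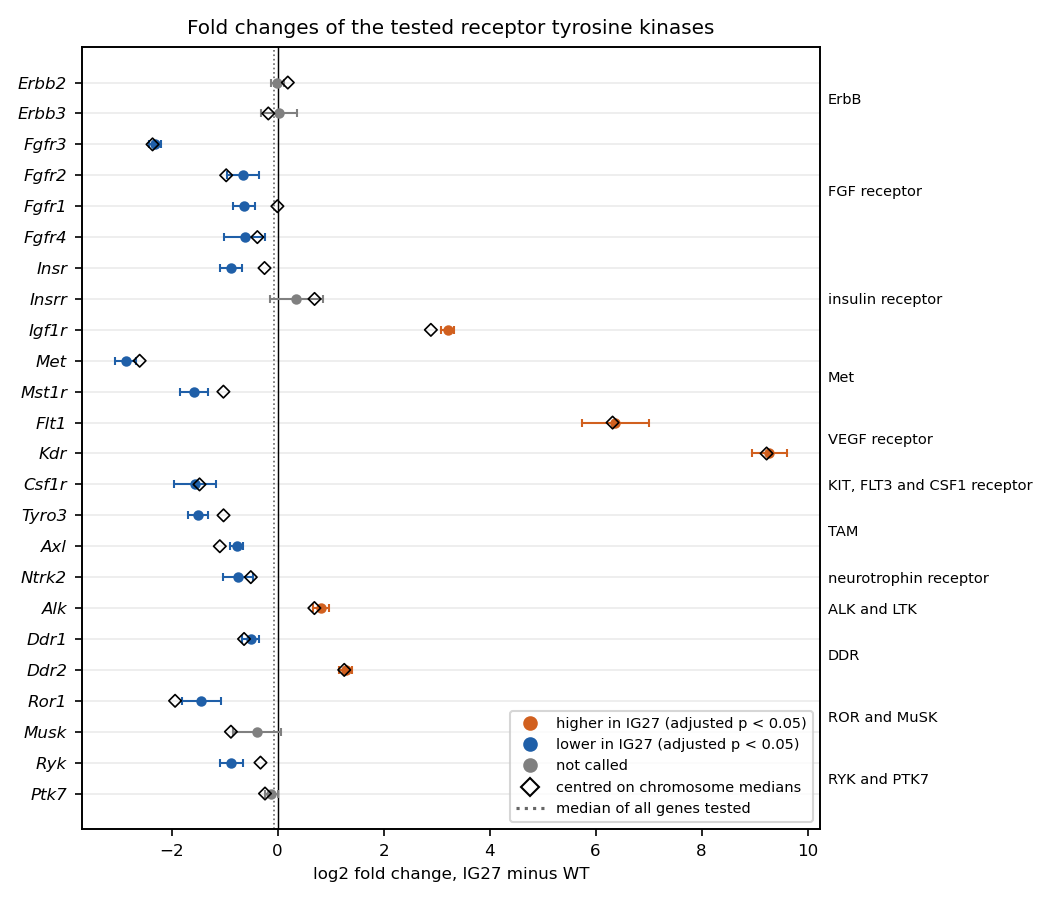
Log2 fold change (IG27 minus WT) of the 24 receptors tested, grouped by family, with filled points for the values as tested, bars for their 95% intervals and open diamonds for the values after centering on chromosome medians. *Kdr* and *Flt1*, whose values of 9.27 and 6.37 rest on background readings in WT cells, and *Igf1r* (3.21) stand highest, most other receptors lie below 0, and *Fgfr1* moves from -0.63 to -0.01 with centering.

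The genes around the receptors were counted in 5 lists, to be read beside the 30.5% of all genes tested that were higher and the 40.0% that were lower. Of 60 ligand genes 32 were tested, with 15 higher, 11 lower and a median log2 fold change of 0.05. Beside those given above, *Ptn*, which encodes pleiotrophin, fell by 2.04. Of 16 co-receptor genes 14 were tested, with 6 higher, 5 lower and a median of 0.06. Of 35 genes for adaptors and the RAS, PI3 kinase and ERK routes 34 were tested, with 8 higher, 17 lower and a median of -0.25. Changes of at least 2-fold in this list, beside *Irs1*, *Irs2* and *Grb14*, were found in *Pik3ca*, *Mapk3*, *Gab1* and *Shc4*. *Pik3ca*, which encodes a catalytic subunit of PI3 kinase, rose by 1.51, whereas *Pik3cb*, which encodes another, fell by 0.58. *Mapk3*, which encodes ERK1, rose by 1.02, and *Gab1*, a docking protein, fell by 1.01. *Shc4* rose by 1.43 by its brightest probe and fell by 0.61 by the other. The probes of *Shc2* disagreed too, with -0.21 (limma adjusted p = 0.065) by the brightest and -2.27 (adjusted p = 3.72e-07) by the other. The RAF and MEK genes *Araf*, *Braf*, *Map2k1* and *Map2k2* fell by 0.43 to 0.91.

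Targets of ERK signaling were mostly higher in IG27 cells. This list, like the others, was chosen with earlier results of these data known, so its counts are a description only. Of 18 such genes 16 were tested, 14 rose (beside 30.5% of all genes) and 1 (*Emp1*, by 0.45) fell (beside 40.0%), with a median log2 fold change of 2.49, or 2.24 with genes at the background in WT cells set to their bound. Only 11 of the 16 were well above background in both groups, and with such probes alone 10 of 11 were called, *Emp1* included. The others entered the test through 1 group, and a gene that enters through IG27 cells alone is bound to read higher there. *Egr3*, an immediate early transcription factor, was at least 234.1-fold higher, and *Etv1*, an ETS factor that was well above background on 2 of 3 WT arrays, rose by 6.07. *Egr2* rose by 4.78, *Etv5* by 3.05, *Fosl1* by 2.97, *Etv4* by 1.95 and *Egr1* by 1.66, and *Ccnd1*, which encodes cyclin D1, by 0.84. Of 26 negative regulators 25 were tested, with 13 higher, 10 lower and a median of 0.26. Those that ERK itself induces, which both lists share, were higher: *Dusp4*, a phosphatase of ERK that was well above background on 1 of 3 WT arrays, rose by 3.32, *Dusp6* rose by 3.15 and the Sprouty gene *Spry2* by 2.53, and *Spry4* was at least 2.22-fold higher. *Errfi1*, an inhibitor of EGFR, rose by 1.80, *Spry1* by 1.30 and *Spred3* by 1.26. *Spred2* rose by 1.51 by its brightest probe, and its other probe had -0.10 (limma adjusted p = 0.491). *Dusp7* fell by 1.34 and the ubiquitin ligase gene *Cbl* by 0.79, while *Cblc* was lower by at least 2.08-fold. The activity of ERK and the phosphorylation of the receptors were not measured on the arrays.

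**Figure D4:**
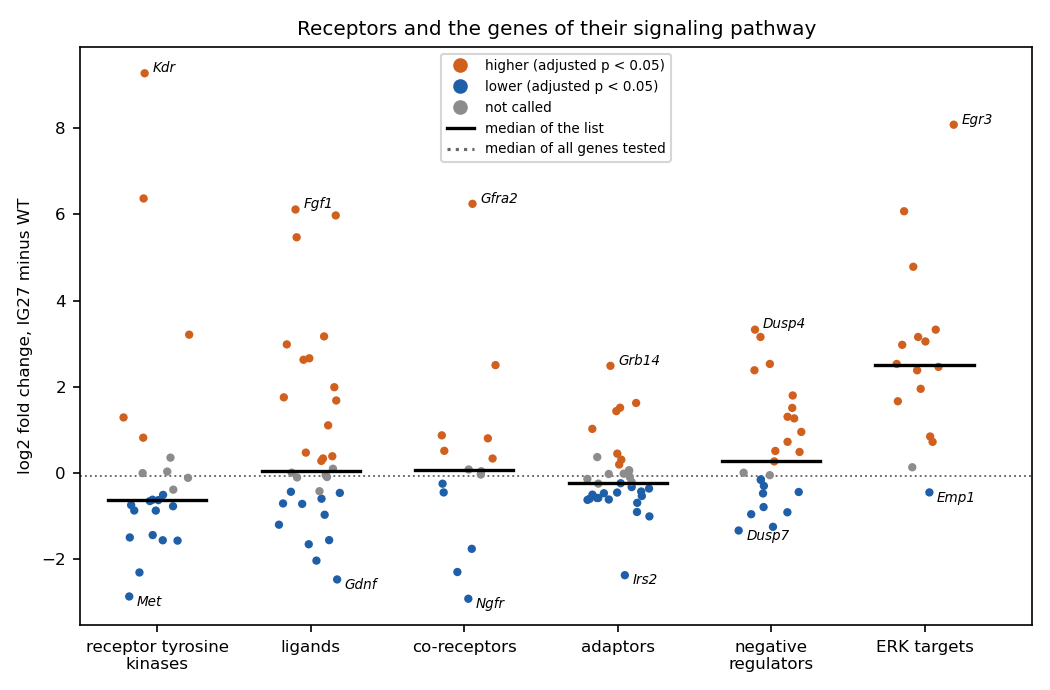
Log2 fold change (IG27 minus WT) of the tested genes of each list, one point per gene, orange for higher, blue for lower and gray for not called, with a black line at the median of the list and a dotted line at the median of all genes tested. The receptors have a median of -0.63 with *Kdr* far above, and the ERK targets a median of 2.49 with 14 of 16 genes higher. Of these 16 genes, 11 were well above background in both groups. All lists were chosen with earlier results of these data known.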

How the data were processed

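Members and lists were chosen with earlier results of these data known. RNA of 6 dishes, labeled with Cy3, was measured on single-color Agilent mouse arrays of 1 slide. The authors read each spot with Feature Extraction (version 10.7.3.1 in the file headers, 9.1 in the submitters' processing notes), and deposited its processed signal, an intensity on a linear scale that the software has already processed. For IG27 replicate 2 the scanner output breaks off at 285 spots, and its intensity values came from the deposited value table, in which the columns of WT replicates 2 and 3 are exchanged. The methods name GeneSpring and a moderated test.

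From each log2 processed signal the 75th percentile of its array was subtracted, and outlier spots were left out. Probes were named by accession (RefSeq table of GRCm38.p6; 32994 of 56605 probes, 22911 genes). Tested probes were well above background throughout the complete arrays of a group, and the brightest stood for its gene. Differences were tested with limma 3.58.1 in R 4.3.3 (lmFit, eBayes, no block, threshold 0.05), which was tested on simulated data. A gene whose probe was well above background in 1 group and on no array of the other was given as a bound against the lowest signal well above background. Values on each array were given for members changed at least 2-fold or measured in 1 group only. From each list, up to 8 called genes with at least a 2-fold change were named, and ligands of the members described; further list genes named were chosen after their values were seen. Alternatives were each array left out, the value table, quantile normalization, the filter on dim probes dropped or made stricter, outlier spots kept, the mean of probes, eBayes with trend and robust, replicate and slide row as blocks, normexp (offset 50, complete arrays), chromosome centering and an unadjusted p. The number of arrays limits the precision. Some genes of the lists are not reported here by name.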

Additional observations from a re-analysis of the deposited data

How the results depend on the processing

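Of 429 comparisons of the 24 tested receptors with 18 alternatives, 419 kept their side of the threshold, 6 gained a call without a change of sign and 3 lost one. The sign changed in 10, all of *Erbb2* and *Erbb3*, which were near 0, and with a call in 1 of them, *Erbb2* with 0.19 after centering on chromosome medians. The lost calls were those of *Fgfr1* and *Fgfr4* after centering and of *Fgfr4* with the slide row as a block. The median log2 fold change of the receptors was -0.69 with quantile normalization, -0.48 with normexp, -0.35 with centering and -0.0072 with no filter, which takes in all 37 receptors, and ran from -0.67 to -0.55 with an array left out. With probes well above background in both groups only, 3 receptors were higher, as *Kdr* and *Flt1* were not tested. Without WT replicate 2, *Musk* was called (limma adjusted p = 0.0407). The count of all genes called ran down to 8946 with the slide row as a block, in which all IG27 arrays and WT replicate 2 share a row. With the replicate number as a block, 10309 genes and 19 receptors (5 higher, 14 lower) were called; same-numbered arrays deviated with correlations of 0.01, 0.04 and 0.08, so the numbers do not pair the samples. At an unadjusted p of 0.05, 10855 genes and 19 receptors passed. Dim receptors are limited by the background: *Mst1r* fell by 1.57 as tested and by 0.47 with normexp.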
